A study of Mus musculus with 15 samples.

Results

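Ribosomal protein promoters are described here in 15 nucleosome maps of mouse cells. The promoters were chosen by gene symbol from the promoter annotation deposited with the maps: symbols that begin Rpl or Rps followed by a digit, together with Rplp0, Rplp1, Rplp2 and Rpsa, and without the Rps6k kinases. The rule found 101 of 25881 annotated transcription start sites (TSSs), which belong to 94 gene symbols. Of these promoters, 83 belong to ribosomal protein genes proper (52 of the large and 31 of the small subunit), and 18 belong to paralogues, pseudogenes and similarly named genes such as Rps19bp1, which encodes a binding partner of a ribosomal protein.

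Nucleosomes were mapped by ChIP-MNase-seq: crosslinked chromatin in large fragments was immunoprecipitated and then digested with micrococcal nuclease (MNase), which cuts between nucleosomes. Precipitation of H3K4me1, a histone mark found around active and poised promoters, gave maps of dendritic cells (DCs), grown from mouse bone marrow progenitor lines, and of 3T3 fibroblasts, an immortalised mouse line. DCs were resting or treated with lipopolysaccharide (LPS, 100 ng/ml, 1 h), and fibroblasts were resting or treated with tumour necrosis factor alpha (TNF-α, 5 ng/ml, 1 h); for each of these 4 conditions there was 1 pooled map, in which the authors combined 2 replicates. Separate maps, 2 per group, came from control and BAF-knockdown fibroblasts, each resting and TNF-treated. The knockdown used 1 retroviral shRNA, expressed from the U6 promoter, against a sequence shared by Brg1 and Brm, the catalytic subunits of the BAF chromatin remodelling complex, in a sorted population that is not null for either. TNF-treated fibroblasts were also mapped through RNA polymerase II phosphorylated on serine 7 (S7P, 2 maps) or serine 5 (S5P, 1 map) of its C-terminal repeats. The assay does not measure mRNA, so the knockdown itself cannot be checked in these maps.

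Cytosolic ribosomal proteins assemble with ribosomal RNA into the large and small subunits of the ribosome, and their genes are transcribed in almost every growing cell. Many of their mRNAs start with a cytosine followed by a run of pyrimidines, the 5′ terminal oligopyrimidine (TOP) tract, through which mTOR signalling adjusts their translation. Most of the genes also have processed pseudogenes elsewhere in the genome, so that sequence downstream of the start can occur in more than one place.

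The starts themselves are shown first, because every value below is measured from them. In the mm9 genome, 47 of the 101 starts coincided with a transcript start of the GENCODE annotation, 88 lay within 50 bp of one, and 13 lay farther away. Of all annotated starts, 85.65% lay within 50 bp of one. Among promoters with coverage above 100, a limit explained below, the following sequences belong to the 3 most strongly patterned in resting DCs and the 3 most strongly patterned in resting fibroblasts. Each runs 5′ to 3′ from 40 bases before the annotated start, and the capitals are the first 15 transcribed bases.
Rpl13a, chr7:52384101-52384155, minus strand: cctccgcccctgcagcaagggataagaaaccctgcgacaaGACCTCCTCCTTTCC
Rpl36, chr17:56752778-56752832, plus strand: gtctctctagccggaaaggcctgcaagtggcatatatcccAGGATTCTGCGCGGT
Rpl15, chr14:19103486-19103540, minus strand: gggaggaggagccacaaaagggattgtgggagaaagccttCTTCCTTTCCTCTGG
Rpsa, chr9:120036844-120036898, plus strand: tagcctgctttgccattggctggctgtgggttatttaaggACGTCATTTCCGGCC
Rpl9, chr5:65782656-65782710, minus strand: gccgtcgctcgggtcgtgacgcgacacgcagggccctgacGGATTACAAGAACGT
Rpl23a, chr11:77997072-77997126, minus strand: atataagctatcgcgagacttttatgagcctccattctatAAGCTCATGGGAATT

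Promoters with low patterning are shown for contrast: Rpl34 was low in resting DCs, Rps9 in resting fibroblasts and Rpl3l in both. The start of this Rpl34 transcript lies inside an Rpl34 intron, 1030 bp from any annotated start. Rpl3l is a paralogue of Rpl3 known from striated muscle, and Rps9 is a small subunit protein.
Rpl34, chr3:130432208-130432262, minus strand: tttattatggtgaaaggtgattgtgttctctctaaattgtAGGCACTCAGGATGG
Rpl3l, chr17:24869590-24869644, plus strand: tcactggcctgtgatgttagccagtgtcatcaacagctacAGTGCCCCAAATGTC
Rps9, chr7:3655603-3655657, plus strand: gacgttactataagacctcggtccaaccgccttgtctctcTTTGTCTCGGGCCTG

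A TOP-like tract, counted as a C at the annotated start followed by at least 4 C or T bases, was present at 19 of the 101 ribosomal protein starts (18.8%) and at 2.22% of the 25738 starts with sequence on a chromosome of the reference. Annotated starts can be a few bases off, and when the tract was allowed to begin within 5 bases of the start on either side, 42 of the 101 starts (41.6%) and 17.9% of all starts held one. Starts of the mitochondrial ribosomal proteins, which serve the separate ribosome of the organelle, held the tract at the exact base in 1 of 80 cases and within 5 bases in 19 of 80 (23.8%). The Rpl15 sequence above is one example, and 2 others with high coverage are Rplp2, a protein of the ribosomal stalk, and Rps27, a small subunit protein.
Rplp2, chr7:148633509-148633563, plus strand: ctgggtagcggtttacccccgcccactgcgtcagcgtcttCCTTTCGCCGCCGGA
Rps27, chr3:90017556-90017610, minus strand: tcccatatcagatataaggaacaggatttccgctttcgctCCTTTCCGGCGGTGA

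Other sequence features were counted on both strands from 250 bases before to 50 bases after the start. CCGGAAG, the core bound by ETS factors, was present at 38 of the 101 ribosomal protein starts (37.6%) and at 11.1% of all starts. AAGATGGC, part of the motif bound by YY1, was present at 9.90% against 3.22% of all, and GGGCGG, the GC box, at 54.5% against 45.3%. TATAAA was present at 13.9% of ribosomal protein starts and 12.7% of all. CpG islands (GC over 50% and CpG at over 0.6 of its expected number, within 200 bp of the start) covered 88 of the 101 starts (87.1%) and 48.3% of all. The mitochondrial ribosomal protein starts were like the cytosolic ones in CCGGAAG (43.8%), in GGGCGG (52.5%) and in CpG islands (93.8%). AAGATGGC was present at 17.5% of the mitochondrial starts. These matches describe letters only, and overlapping annotated starts of 1 gene (3 of Rpl35a, for example) and the Rps27 and Rps27rt starts, which are 1 bp apart, repeat the same sequence.

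Coverage of each promoter is given in the annotation as the mean number of fragments around the start in resting cells. It exceeded 100 at 76 of the 101 ribosomal protein promoters (75.2%, 69 symbols), compared with 52.4% of all promoters, and these 76 were used below beside the 13559 promoters of all genes that pass the same limit. Just above the limit lay Rplp1 (101.5), Rpl21 (101.75) and Rpl15 (103). Just below it lay Rpl11 (94.75), whose product binds Mdm2 when ribosome assembly fails, Rps15a (86.75) and Rps14 (83.75). The 25 promoters below the limit also include Rps6 (59), Rps19 (49), Rpl5 (73.25), Rpl10 (70), Rps20 (82.75), Rpl39 (82.5) and Rps4x (63), and the paralogues Rpl22l1 (78.5), Rps27l (70.75), Rpl39l (33.5) and Rpl10l (12.5). Their maps are sparse. Patterning, a score of likeness to active promoters defined below, ranged among these 25 in resting DCs from −20.3 at Rpl10 to 18.9 at Rpl22l1.

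Expression in the deposited annotation, taken by the authors from other data, placed the ribosomal protein transcripts at the median percentile 97.3 of all transcripts in DCs but at 61.5 in fibroblasts. The 2 columns are on different scales, which does not change percentiles. They count individual transcripts: Rpl13a lay at 97.7 and 99.1, while Rpl26 lay at 43.3 and 31.6. Other lists were not lower in fibroblasts. Medians in DCs and fibroblasts were 95.1 and 98.3 for other genes with TOP mRNAs and 82.5 and 85.95 for mitochondrial ribosomal proteins. For proteasome subunits they were 93.7 and 95.2. The source of the lower ribosomal protein median in fibroblasts was not tested. The cell types matched their markers in these columns, with a median percentile of 99.5 for 10 DC marker genes in DCs (48.2 in fibroblasts) and of 99.4 for 10 fibroblast marker genes in fibroblasts (53.2 in DCs). In the maps, the DC marker promoters were also less occupied in the 150 bp before the start in resting DCs (median 0.41) than in resting fibroblasts (0.91). Only 4 of the 10 fibroblast marker promoters passed the coverage limit, with medians of 0.93 in DCs and 0.75 in fibroblasts.

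Occupancies were divided by the mean of each map, so that 1 is the average over all bins of the promoters with sufficient coverage. In resting DCs, the mean profile of the ribosomal protein promoters fell to 0.27 at 5 bp after the start and rose to 1.86 at the +1 nucleosome, the first after the start, centred at 145 bp, with further peaks at 325 bp (1.34) and 475 bp (1.18). The 8305 other promoters active in DCs, those with expression above 0.02 of the mean, reached 0.52 at their lowest and 1.44 at +1. The stretch with mean occupancy below 0.75 was 270 bp long at ribosomal protein promoters, ending 75 bp after the start, compared with 190 bp at the other active promoters. Promoters of genes listed with no expression showed no such stretch. Profiles in resting fibroblasts had the same parts, with a low of 0.30, a +1 peak of 1.78 and a stretch of 240 bp below 0.75, compared with 0.46, 1.61 and 200 bp at the 6421 other promoters active in fibroblasts. At the 62 mitochondrial ribosomal protein promoters the low, +1 peak and stretch were 0.34, 2.275 and 220 bp in resting DCs. In resting fibroblasts they were 0.24, 2.50 and 230 bp. Each of these maps is a single pooled set with no replicate error, so these differences carry no test.

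**Figure D1:**
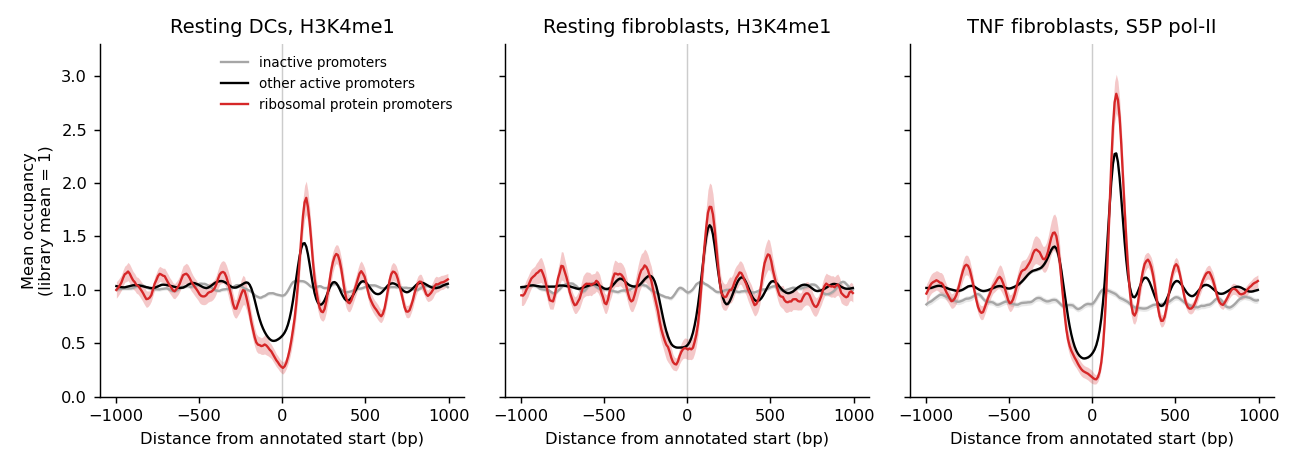
Mean nucleosome occupancy (vertical axis, library mean = 1) against the distance from the annotated start in bp (horizontal axis, negative before the start) in resting DCs, resting fibroblasts and the S5P map of TNF-treated fibroblasts; lines are means over 76 ribosomal protein promoters (red), other promoters active in that cell type (black) and inactive promoters (grey), and bands are ± 1 SE over promoters. The red line dips lower before and at the start than the black line and peaks higher at about 145 bp, with the highest peak (2.83) in the S5P map.

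Single promoters were summarised by 3 measures. The NDR occupancy is the mean over the 150 bp before the start, where active promoters have a nucleosome depleted region (NDR). The +1 occupancy is the mean over a window of 100 bp centred 135 bp after the start. The patterning level follows the measure of the study in kind: it sums the product of a promoter's occupancy and the mean profile of active promoters in the same cell type, so that higher values are closer to the typical active profile and values near 0 or below show none of it.

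NDR occupancy of the 76 ribosomal protein promoters had a median of 0.28 in resting DCs, 0.34 after LPS, 0.25 in resting fibroblasts and 0.08 after TNF-α in the pooled maps. The medians of all 13559 promoters in the same maps were 0.67, 0.64, 0.65 and 0.60. Those of the 6421 other promoters active in fibroblasts were 0.48, 0.42, 0.41 and 0.30. The ribosomal protein promoters also held fragments in fewer of the bins around the start, with median shares of 88.0%, 82.5%, 82.0% and 69.5%. For all 13559 promoters these shares were 93.0%, 89.0%, 89.5% and 84.0% in the same order. The gap in this share was widest after TNF-α, where the NDR median was lowest. How far the lower share accounts for the lower NDR medians was not tested. In resting DCs, 50 of the 76 promoters (65.8%) lay below 0.5, as did 38.9% of all promoters. Of the 76, 17 (22.4%) had no fragment in the NDR window at all. Without the coverage limit this held for 22 of 101 (21.8%) and for 11.8% of all 25881 promoters. Median patterning was 8.02 in resting DCs and 7.67 after LPS, where other promoters active in DCs had 5.10 and 5.34. In fibroblasts it was 6.45 at rest and 8.95 after TNF-α, where other active promoters had 6.41 and 6.51. The resting fibroblast values were nearly equal, while in the other 3 maps the ribosomal protein promoters had a higher median than the other active promoters. The 62 mitochondrial ribosomal protein promoters had higher medians still, at 10.5, 9.69, 10.8 and 12.4 in the same order of maps. Those of 25 ribosome biogenesis promoters were 8.46, 8.67, 9.24 and 8.965. Median +1 occupancy of the 76 ribosomal protein promoters was 1.42 in resting DCs and 1.21 in resting fibroblasts. It lay above the other promoters active in DCs (1.21) but below those active in fibroblasts (1.33). It was 1.78 and 1.92 at the 62 mitochondrial ribosomal protein promoters, whose NDR medians were 0.34 and 0.27.

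**Figure D2:**
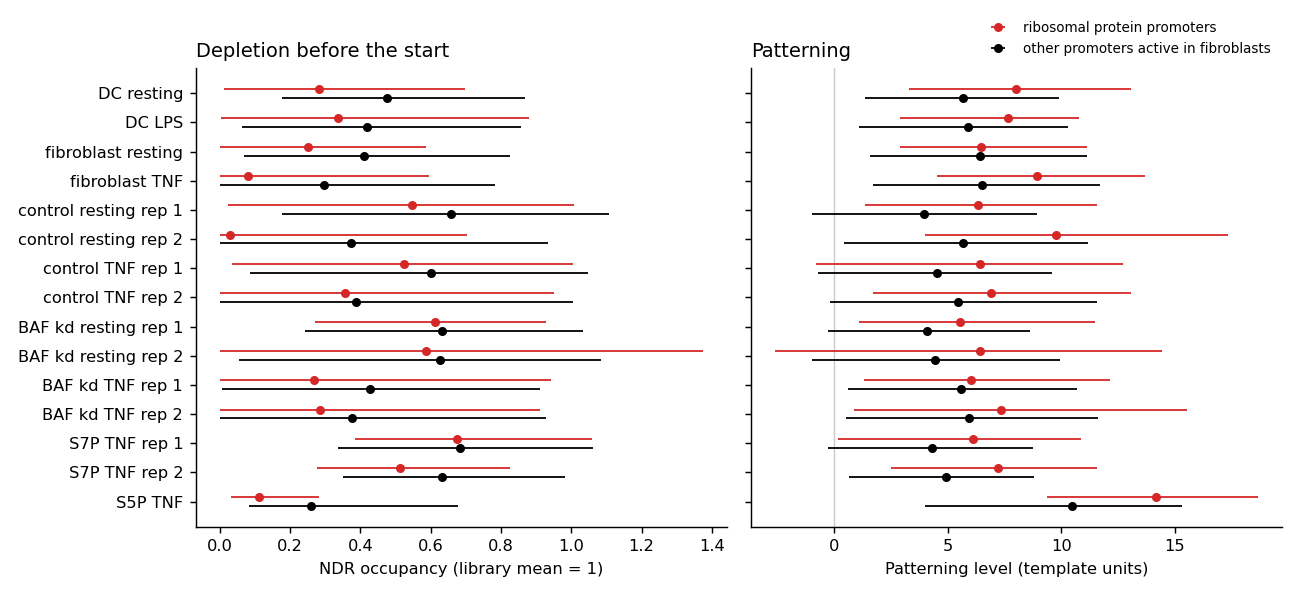
NDR occupancy (left, library mean = 1) and patterning level (right) in each of the 15 maps; points are medians and bars are the quartiles over 76 ribosomal protein promoters (red) and 6421 other promoters active in fibroblasts (black). The red median lies below the black one for NDR occupancy and above it for patterning in all 15 maps, with nearly equal patterning in resting fibroblasts (6.45 and 6.41), and the quartile bars overlap throughout.

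In resting DCs the 45 large subunit promoters had a median patterning of 7.12 and the 21 small subunit promoters 9.13, whereas in resting fibroblasts the medians were 7.28 and 6.05. Among large subunit genes, Rpl13a, whose product also takes part in interferon-controlled translation, had the highest patterning in resting DCs (20.8), with no fragment in its NDR and a +1 occupancy of 4.18. Other high values were those of Rpl36 (19.1), Rpl15 (18.6) and Rpl8 (17.7). In resting fibroblasts the small subunit gene Rpsa, which encodes the protein also known as the laminin receptor, was highest (32.8) with a +1 occupancy of 6.70. Rpl9 (30.6), Rpl23a (21.6), the paralogue Rpl7l1 (20.8) and Rps27 (20.2) followed. These values come from pooled maps without replicates. In both separate control resting maps Rpsa patterning was much lower, as given with the interaction below. Over the 76 promoters the rank correlation of patterning between resting DCs and resting fibroblasts was 0.50, and over all promoters 0.49; these points share the maps and, for neighbouring starts, the same fragments.

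At the other end, Rpl24 was low in both cell types, with patterning of −2.95 in DCs and −2.98 in fibroblasts and an NDR occupancy of 1.44 in DCs and 1.49 in fibroblasts, as was the Rpl3l transcript shown above (1.5 and 1.27). Rps9 and Rplp1 were low in the resting fibroblast map and not in the resting DC map: Rps9 patterning was 7.18 in DCs and −4.91 in fibroblasts, and Rplp1 was 7.49 in DCs and −2.96 in fibroblasts. Rps15a-ps6, a pseudogene inside an intron of Nudcd3, and Rpl32l, inside an intron of Mtap7, were also among the lowest. The NDR occupancy of Rps15a-ps6 was 1.32 in DCs and 0.41 in fibroblasts, and that of Rpl32l was 0.55 and 1.25.

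Values also differed with the position of the annotated start. The 8 of 76 promoters whose start lies more than 50 bp from every GENCODE start had a median patterning of 2.50 in resting DCs and 2.63 in resting fibroblasts, and the other 68 had 9.14 and 8.15 (a split made after the values were seen, with no test). Rpl38, a large subunit gene linked to vertebral patterning, has starts of both kinds: in the S5P map the start nearer to the GENCODE one had patterning 13.8, and the start 155 bp from it had −5.13. Rps27a, which encodes a fusion of ubiquitin with a ribosomal protein and whose start lies 69 bp from GENCODE, had −5.35 there.

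**Figure D3:**
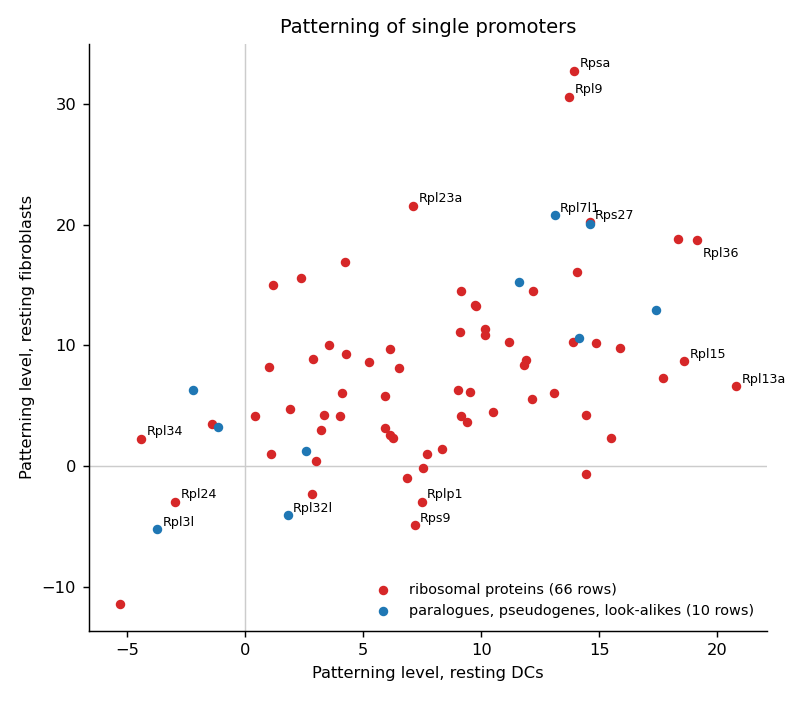
Patterning level of each of the 76 ribosomal protein promoters in resting DCs (horizontal axis) and resting fibroblasts (vertical axis); red points are ribosomal proteins proper (66) and blue points are paralogues, pseudogenes and similarly named genes (10). Rpsa and Rpl9 stand highest in the pooled map of resting fibroblasts, and Rpl13a and Rpl36 farthest right in that of resting DCs.

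The ribosomal stalk proteins Rplp0, Rplp1 and Rplp2, which recruit elongation factors, differed among themselves. Rplp2 had patterning of 9.15 in resting DCs, 7.68 after LPS, 14.5 in resting fibroblasts and 9.15 after TNF-α. Rplp0 had 6.50, −17.0, 8.13 and 9.98 in the same order, and its NDR occupancy was 0 at rest and 2.75 after LPS. At one Rpl38 start, NDR occupancy was 0.25 at rest and 4.01 after LPS. With 1 map per condition these differences have no replicate check, and both were chosen after their values were seen. Across the 76 promoters, NDR occupancy was higher after LPS at 38 (45.0% of all promoters were higher) and patterning was lower at 40 (49.4% of all). After TNF-α in the pooled fibroblast maps, patterning was higher at 40 of the 76 (51.1% of all). These shares were near those of all promoters.

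The effect of BAF on these promoters was asked with the 8 maps of control and knockdown fibroblasts, in a fit across all 13559 promoters (limma) with knockdown and TNF-α as terms and Benjamini-Hochberg adjustment. Neither knockdown nor TNF-α gave a ribosomal protein promoter with an adjusted p below 0.05 for patterning, NDR occupancy or +1 occupancy. Of all promoters, 0% passed for patterning and NDR occupancy in either direction, and 0.00738% (1 promoter) passed for higher +1 occupancy in the knockdown. At an unadjusted p below 0.05, the knockdown gave 3 of 76 ribosomal protein promoters for patterning, 6 for NDR occupancy and 7 for +1 occupancy, where 5.82%, 6.09% and 6.26% of all promoters passed. TNF-α gave 6, 4 and 5 of 76, where 5.72%, 5.6% and 5.82% of all passed.

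Median differences were small against the spread. Patterning of the ribosomal protein promoters was 0.92 lower in the knockdown (median of 76, all promoters 0.07 higher) and 0.19 lower with TNF-α (all promoters 0.30 higher). Neither direction was stable. The median difference placed the knockdown 0.11 above the controls without control resting replicate 2 and 0.14 above with square roots of occupancy, and the difference was −0.08 without knockdown resting replicate 1. It placed the TNF-treated maps 2.23 above the resting maps without control resting replicate 2, 0.62 and 0.30 above without control TNF replicate 1 or 2, 0.07 above with square roots and 0.22 above without the coverage limit. The median NDR occupancy of the 76 promoters in single maps was 0.55 and 0.03 in the 2 control resting maps, 0.61 and 0.59 in the knockdown resting maps, 0.52 and 0.36 in the control TNF maps, and 0.27 and 0.28 in the knockdown TNF maps. The control resting replicates were thus farther apart than the means of any 2 of these groups. Between replicates the rank correlation of patterning over the 76 promoters ranged from 0.31 in the control resting group to 0.43 in the knockdown resting group.

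Few promoters had groups that did not overlap. Rpl23a was the promoter whose 4 knockdown maps all exceeded the 4 control maps in patterning, with 20.9, 25.7, 14.2 and 26.0 in the knockdown and 11.3, 9.92, −3.04 and 5.61 in the controls. Its difference was 15.8 ± 3.57 (SE, n = 4 and 4 maps) with an adjusted p of 0.82 in limma. In the pooled map of resting fibroblasts, which had no knockdown, Rpl23a patterning was 21.6, within the range of the knockdown maps. Rps10 was the one with all knockdown maps below all controls, at 3.12, 7.12, −0.09 and 9.09 against 14, 14.7, 10.3 and 10.6. One promoter in each direction is 1 of 76, and such separation was found at 1.46% (higher) and 1.5% (lower) of all promoters. For NDR occupancy, Rps16 had the lowest unadjusted p: it was at 0.32, 0.53, 1.40 and 0.92 in the knockdown and at 0, 0.03, 0 and 0 in the controls, with a difference of 0.79 ± 0.20 (SE) and an adjusted p of 0.78 in limma. It was 1 of 76 with all knockdown maps higher, as were 1.48% of all promoters. These genes were chosen after their values were seen.

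The 4 TNF-treated maps of Rpl27a lay below the 4 resting maps in patterning, at 7.93, 8.35, 4.51 and 0.09 against 16.7, 18.1, 22.3 and 16.4. Its +1 occupancy was 0.78, 0, 0 and 0 with TNF-α and 3.10, 2.75, 4.21 and 2.73 at rest, with an adjusted p of 0.53 in limma. Rpl17 had NDR occupancy of 1.45, 1.28, 0.78 and 1.38 at rest and 0.21, 0.23, 0.01 and 0 with TNF-α, and an adjusted p of 0.53 in limma. Such separation downward was found at 1 of 76 promoters for NDR occupancy (1.69% of all) and at 2 of 76 for +1 occupancy (Rpl27a and Rplp2; 1.23% of all). Separation in patterning was seen at 3 of 76 promoters upward (Rps2, Rpl17 and Rpl21; 1.62% of all promoters) and at 2 downward (Rpl31 and Rpl27a; 1.03% of all). The genes named for TNF-α were likewise chosen after their values were seen.

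The interaction of knockdown and TNF-α, which asks whether the TNF response differs in knockdown cells, also gave 0 of 76 ribosomal protein promoters and 0% of all for patterning. At an unadjusted p below 0.05 it gave 10 of 76, where 5.67% of all passed; 8 of these were positive. The median interaction was 3.00 at ribosomal protein promoters and 0.76 at all promoters. Its size rested on single maps: among the ribosomal protein promoters it was 0.56 without control resting replicate 2, 7.17 without control resting replicate 1, 4.67 without knockdown resting replicate 2, and 5.99 and 1.93 without knockdown TNF replicate 1 or 2. Both replicate 1 maps of the knockdown, and no control map, carry the tag 04U in their deposited names, whose meaning is not given in the sources used here, so tag and knockdown partly overlap. Without these 2 maps the median interaction was 6.32, and in all maps at the 43 promoters with coverage above 200 it was 1.68. The lowest p belonged to Rps28, a small subunit protein, whose patterning was 16.3 and 15.3 in control resting maps, 3.27 and 5.21 in control TNF maps, 12.2 and 8.39 in knockdown resting maps, and 13.5 and 16.5 in knockdown TNF maps (interaction 16.2 ± 4.24, SE; adjusted p = 0.86, limma). Rpsa showed 2.61 and 6.33, then −6.83 and 3.25, then −4.51 and 14.1, then 19.8 and 31.1 in the same order.

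**Figure D4:**
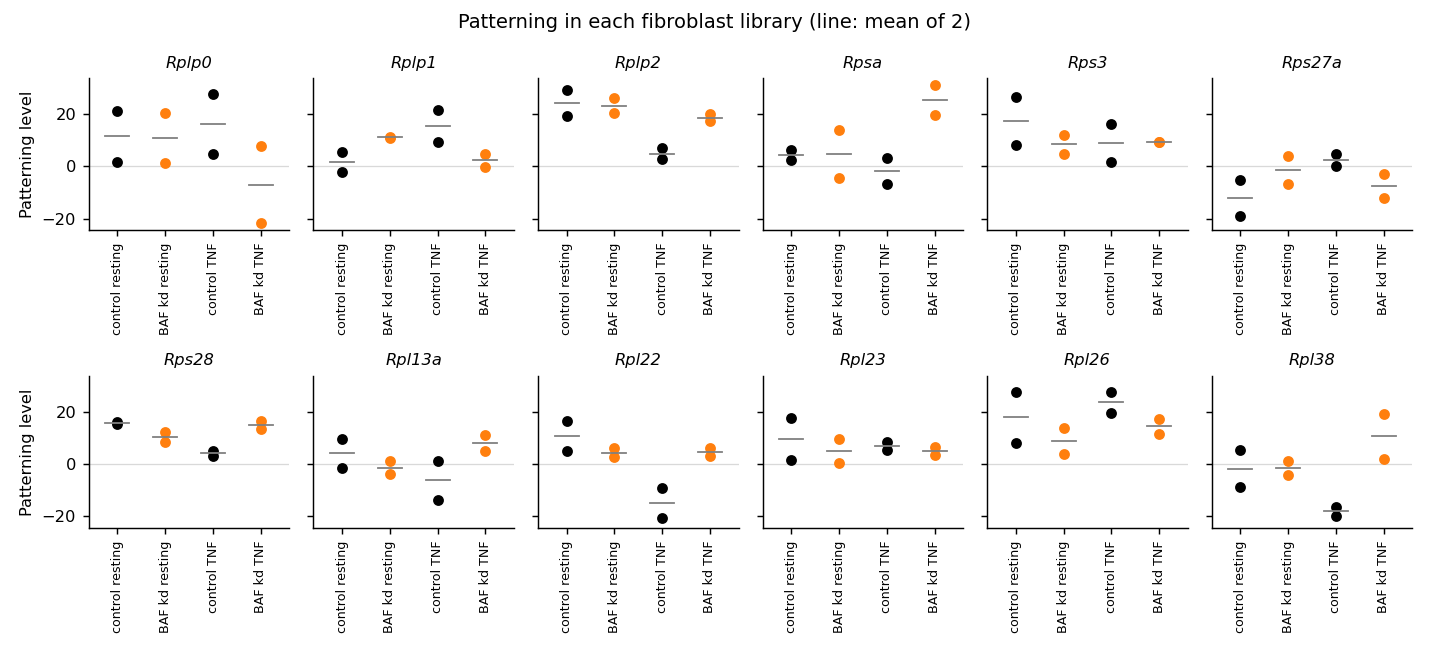
Patterning level (vertical axis) of 12 ribosomal protein promoters in control (black) and BAF-knockdown (orange) fibroblasts, resting and TNF-treated; each point is 1 of the 2 maps of a group and the line is their mean. Replicates of Rplp0 are as far apart as 4.6 and 27.6 in the control TNF group, and no promoter shown passed the test.

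The polymerase maps show the nucleosomes of chromatin that polymerase occupies. The study's methods list S5P replicates, and the 1 S5P map used here may be a single replicate or a pool. In this map the ribosomal protein promoters had the highest patterning of any map, with a median of 14.2 (other active promoters 10.5), an NDR median of 0.11 (0.26) and a +1 median of 2.6 (2.02). Median patterning in this map was also 14.25 at 25 ribosome biogenesis promoters and 13.84 at 15 promoters of other genes with TOP mRNAs. The mean profile of the 62 mitochondrial ribosomal protein promoters peaked at 3.47 at +1. Against the pooled TNF map of H3K4me1, patterning was higher in S5P at 54 of the 76 promoters (59.2% of all promoters). In the same comparison +1 occupancy was higher at 50 (59.8% of all). S5P reads were paired-end and H3K4me1 reads single-end, so antibody and read type cannot be told apart.

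In the S7P maps the medians were closer to those of H3K4me1. Patterning was 6.11 and 7.20 in the 2 S7P maps and 6.44 and 6.91 in the 2 control TNF maps, NDR occupancy was 0.68 and 0.51 against 0.52 and 0.36, and +1 occupancy was 1.69 and 1.70 against 1.31 and 1.21. In the limma fit no ribosomal protein promoter passed for any of the 3 measures, and of all promoters 0% passed for patterning and NDR occupancy, and 0.0221% (higher) and 0.00738% (lower) for +1 occupancy. At an unadjusted p below 0.05, 8, 7 and 8 of the 76 promoters passed, where 7.81%, 9.04% and 8.05% of all did. The rank correlation of patterning between the 2 S7P maps was 0.82 over the 76 promoters and 0.35 over all 13559, while the 2 control TNF maps gave 0.39 and 0.27. The 76 promoters were also more fully covered in the S7P maps than all promoters, as given below, and neighbouring starts share fragments. How far this accounts for the higher correlation was not tested.

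The polymerase maps also differed in how much of each promoter they covered. The share of the 200 bins around each start that held any fragment had a median of 95.0% and 95.3% at the 76 ribosomal protein promoters in the S7P maps and 96.0% in the S5P map, compared with 70.0% and 59.0% in the control TNF maps of H3K4me1. Over all promoters the medians were 73.5% and 84.5% in S7P, 90% in S5P and 76.5% and 65.5% in the control TNF maps. The mean share was higher in S7P at 74 of the 76 promoters (61.2% of all promoters), among them all 66 ribosomal proteins proper, and in S5P it was higher than in the pooled TNF map at 72 of 76 (57.7% of all).

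How many promoters passed a test of this share depended on how the maps were put on one scale. The share was added as a measure after the values had been seen. Tested as measured in limma, 4 of the 76 promoters were higher in S7P than in control TNF maps and 0 lower, where 1.33% of all promoters were higher and 0.199% lower. After each map's median over all promoters was subtracted, 37 of 76 were higher and 0 lower, where 11.2% of all were higher and 16.5% lower. Subtraction was chosen because the maps differ in coverage, but with both counts already known, so the count of 37 is no independent result. It also rested on single maps: without S7P replicate 1 it was 2, without control TNF replicate 1 it was 19 and without control TNF replicate 2 it was 16. S7P maps were made from paired-end reads and H3K4me1 maps from single-end reads. The control TNF maps are the controls of the knockdown, while the S7P labels name stimulated fibroblasts without the word control. Both control TNF maps carry the tag 12U in their deposited names, S7P replicate 1 carries 2U and S7P replicate 2 carries none. Antibody, read type, cell group and tag cannot be told apart. The values that follow are those after subtraction, given as a description.

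Of the large subunit promoters, 27 of 45 passed as higher (adjusted p below 0.05, limma), and of the small subunit promoters 9 of 21, where 11.2% of all promoters did. As measured, the mean share was higher in S7P at all 45 and all 21. The difference between the subunits was not tested. Rpl36a showed the lowest p, with 97.0% and 90% in S7P and 55.0% and 27.0% in control TNF maps (difference after subtraction 44.5 ± 8.30 percentage points, SE; adjusted p = 0.00122, limma). Tested as measured, Rpl36a did not pass, and the 4 promoters that did were Rpl7a, Rpl27a, Rps9 and Rplp1. Rpl7a, a large subunit protein, had 99.5% and 97.0% against 52.0% and 48.5%, a difference of 40 percentage points. The small subunit promoter Rps9 (95.0% and 90% against 49.0% and 50.5%) was alike in this, as was the stalk promoter Rplp1 (97.0% and 96.5% against 56.5% and 54.5%). In each of these the S7P maps lay above both control maps with no overlap, and after subtraction this held for 59 of the 76 promoters (31.8% of all), while 3 lay below with no overlap (34.2% of all).

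Of the 10 promoters of paralogues, pseudogenes and similarly named genes, 8 had a higher mean share in S7P as measured and 1 passed after subtraction: Rpl36al, an expressed copy of Rpl36a (25 percentage points higher, adjusted p = 0.0332, limma). Rpl3l, which is listed with no expression in fibroblasts, had 61.0% and 92.5% in S7P and 87.5% and 63.5% in control TNF maps at the start shown above. Rpl32l had 64.5% and 76.5% against 69.5% and 61.5%, and Rps15a-ps6 had 65.5% and 60.5% against 70.0% and 69.0%. The groups overlapped at Rpl3l and Rpl32l and did not at Rps15a-ps6, where S7P was lower.

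Other genes of translation were read with the same test, and counts of higher or lower promoters are of those with an adjusted p below 0.05 (limma). Of 15 promoters of translation factors and other genes with TOP mRNAs, such as Eef2 and Npm1, 7 were higher in S7P and 0 lower. Of 25 ribosome biogenesis promoters, such as Ncl and Fbl, 9 were higher and 0 lower, of 62 mitochondrial ribosomal protein promoters 8 and 0, and of 24 proteasome promoters 6 and 2. The 6421 other promoters active in fibroblasts were higher in 17.1% of cases, and of 10 DC marker promoters 0 were higher and 6 lower. Median differences after subtraction were 21.1 percentage points for ribosomal proteins, 15 for the TOP list, 19.3 for biogenesis, 10.8 for mitochondrial ribosomal proteins, 15.1 for the proteasome and 7.75 for the other active promoters; differences between these lists were not tested.

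**Figure D5:**
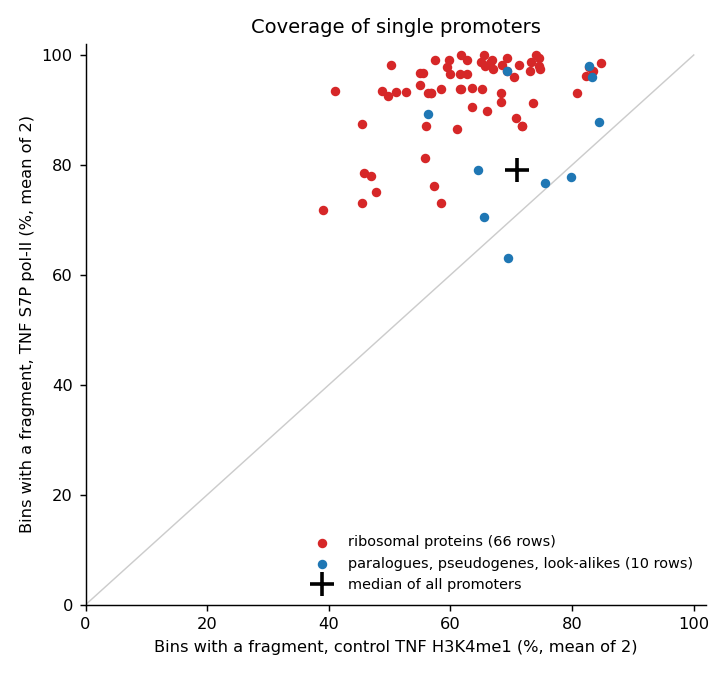
Share of bins with a fragment (%) in the S7P maps (vertical axis) against the control TNF maps of H3K4me1 (horizontal axis), each the mean of 2 maps, for 66 ribosomal protein promoters (red) and 10 paralogues, pseudogenes and similarly named genes (blue); the cross is the median of all promoters and the grey line marks equality. All red points lie above the line, most of them near the top of the vertical axis, and 2 of the blue points lie below it.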

How the data were processed

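ChIP-MNase-seq signal was deposited by the authors as 15 matrices of 25881 refGene (mm9) start sites by 200 bins of 10 bp. The authors aligned single-end (H3K4me1) or paired-end (polymerase) reads with bowtie (the submitters' notes name Bowtie2 and bedtools), kept fragments of 140 to 180 bp or extended single reads to fragment length, kept those unique among promoter regions, smoothed over 50 bp and divided by the surrounding 1 kb. Levels are therefore relative to each promoter's own surroundings, and fragments in sequence shared with processed pseudogenes can be missing or misplaced. Expression was deposited by the authors as a score in 2 columns on different scales, from other data. Columns with the authors' own expression differences were not used. Symbols were matched through RefSeq for 96.3% of starts. Starts were compared with GENCODE vM1.

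Empty cells were taken as 0 and occupancy was divided by each map's mean over promoters with coverage above 100. Deposited means were 1.62 to 1.63 in pooled, 0.79 to 0.80 in single H3K4me1 and 0.96 to 0.97 in polymerase maps, and 63.6% to 90.2% of bins held a fragment. Total depth is not in the files used here. Any 2 maps shared at most 0.348% equal values. Maps were compared with limma 3.58.1 (R 4.3.3) across all 13559 promoters, two-sided, with Benjamini-Hochberg adjustment at 0.05: 8 maps with knockdown and TNF-α as terms (and their product), and 10 maps in 5 groups for S7P. The script was tested on simulated data. Pooled maps and S5P have 1 map each and no test.

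The members, gene lists and markers were chosen with earlier results of these data known. Named genes were members past the test, the 5 highest and 5 lowest in patterning in each resting map, a list of well-known members and paralogues, and those next to the coverage limit; other genes are said to be chosen after their values were seen. The share of filled bins, its centring by map medians, and the split by distance to GENCODE starts were added after the data were seen, the centring with the counts of both fits known. Alternatives covered scaling, square roots, coverage limits, windows, templates, replicate block and single maps left out. Some members that this rule names are not reported here.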

Additional observations from a re-analysis of the deposited data

How the results depend on the processing

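For knockdown, TNF-α and S7P, 0 ribosomal protein promoters passed for patterning, NDR or +1 occupancy in limma, and 0 passed for the interaction of knockdown and TNF-α, which was fitted for patterning only. This held with occupancies as deposited, square roots, no coverage limit, coverage above 200, a replicate block, each map left out and (not for S7P) without the 2 knockdown maps tagged 04U. It also held with another window for NDR or +1 occupancy and, for NDR occupancy only, with the ratio to the flank. Median differences in patterning turned direction under some of these, as given with the results. The share of filled bins (S7P, 37 promoters after centring; measure, centring and alternatives chosen after seeing the data) gave 4 of 76 without centring, 42 of 101 without a coverage limit, 23 of 43 with coverage above 200 and 2 to 37 with 1 map left out. In the fit with a replicate block it gave 39, but same-numbered maps did not deviate together (correlations 3e-04 to 0.0113), so the numbers do not pair the maps. Median patterning relative to other active promoters was 1.57 in resting DCs, 1.44 after LPS, 1.01 in resting fibroblasts, 1.38 after TNF-α and 1.35 in S5P. With square roots it was 1.76 in resting DCs, 1.17 in resting and 1.21 in TNF-treated fibroblasts. With 1 start per gene it was 1.77, 1.55, 1.14, 1.53 and 1.46 in the order above. Without starts more than 50 bp from GENCODE it was 1.79 in resting DCs, 1.27 in resting fibroblasts, 1.6 after TNF-α and 1.48 in S5P. The fibroblast template gave 1.57 after LPS, and leaving out the look-alikes gave 1.55 after TNF-α. The other alternatives moved these ratios by less than the SD between replicates (0.0872). Depth limits single promoters: many 150 bp windows hold no fragment, and replicates of 1 promoter often lie far apart.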
